A study of Mus musculus with 8 samples.

Results

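The transcripts described here encode 9 enzymes of the methionine and one-carbon cycle of the liver: Mat1a, Mat2a, Gnmt, Bhmt, Bhmt2, Cbs, Cth, Ahcy and Shmt1. They were taken by gene name from the deposited expression table of 33467 genes, where each of the 9 names stood in 1 row. Bulk liver RNA came from 8 wild type C57BL/6J mice, 4 of them kept on a standard diet and 4 given 1% 3,5-diethoxycarbonyl-1,4-dihydrocollidine (DDC) in the diet, both for 4 weeks. DDC blocks ferrochelatase, fills bile ducts with porphyrin plugs and is used to produce cholestatic injury and biliary fibrosis. The labels give no age or sex and put all libraries in 1 batch, and every label names a separate biological replicate. Library totals ran from 61179103 to 81664058 counts.

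Methionine adenosyltransferase joins methionine to ATP and makes S-adenosylmethionine (SAM), the methyl donor of most methylation reactions. Use of the methyl group leaves S-adenosylhomocysteine, which is split to homocysteine. Homocysteine is either methylated back to methionine, with betaine or folate as the donor, or passed through cystathionine to cysteine and glutathione. The adult hepatocyte is the main site of this cycle and carries its own synthetase gene, Mat1a, whereas Mat2a serves most other tissues and is known to be raised in fetal, regenerating and transformed liver cells.

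Mat2a RNA carries, after its stop codon, short hairpins with a 9-base site that the RNA methyltransferase METTL16 binds; this is how SAM supply is known to feed back on splicing and decay of the message. The sites are shown because they set Mat2a RNA apart from Mat1a RNA. A search of the GENCODE M21 transcript Mat2a-202 (3387 bases, 2178 of them after the stop codon) for TACAGAGAA or TACAGAAAA on the sense strand found 6 matches, all after the stop codon, and the Mat1a-203 transcript held 0. Of 58797 protein-coding transcripts, 5.43% had at least 1 match and 2 had 6 or more, Mat2a-202 included. The 6 sites lie on the minus strand of chromosome 6 in GRCm38, with the 9 bases in capitals between flanks of 10 bases.
Site 1, chr6:72434245-72434253: tggcgtaggtTACAGAGAAgccttcaagc
Site 2, chr6:72433461-72433469: ccttgtgataTACAGAGAAgtcacagggc
Site 3, chr6:72433282-72433290: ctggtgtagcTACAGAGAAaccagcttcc
Site 4, chr6:72433167-72433175: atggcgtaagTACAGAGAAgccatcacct
Site 5, chr6:72433056-72433064: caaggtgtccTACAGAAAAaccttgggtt
Site 6, chr6:72432948-72432956: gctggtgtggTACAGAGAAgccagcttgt

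In control livers the cycle was dominated by Mat1a, Gnmt and Ahcy. On the per-length scale of the deposited FPKM values, Mat1a stood at 1226 ± 104 (SD, n = 4), Gnmt at 1171 ± 129 and Ahcy at 866 ± 5.55. Mat1a and Gnmt overlapped in the controls. Then followed Bhmt at 201 ± 27.1 FPKM, Cth at 122 ± 6.72, Bhmt2 at 61.6 ± 3.77, Cbs at 29.7 ± 0.890, Shmt1 at 23.3 ± 4.18 and Mat2a at 23.2 ± 3.51. Shmt1 and Mat2a were not separated by their spread, while the other neighbours below Gnmt in this order did not overlap. In DDC livers the order of the first 6 was the same, from Mat1a at 848 ± 41.7 FPKM (n = 4) to Bhmt2 at 70.9 ± 6.15, but Ahcy at 358 ± 23.2 and Bhmt at 343 ± 103 now overlapped. Mat2a, last in controls, stood above Cbs and Shmt1 in DDC, at 32.1 ± 2.38 FPKM against 24.5 ± 1.92 and 21.6 ± 1.91. Together the 9 genes took 1.05% ± 0.0507 of all counts in controls and 0.797% ± 0.0516 in DDC (n = 4 each, two-sided exact permutation p = 0.0286, the smallest that 4 against 4 allows).

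Between groups, levels are given as CPM, counts on a common library total after TMM, a scaling that equalises the bulk of genes. The test was edgeR's quasi-likelihood test over 19535 genes, with Benjamini-Hochberg adjustment and a threshold of 0.05. With it 7 of the 9 genes were lower in DDC, 0 were higher, and Mat2a and Bhmt did not pass; library totals alone gave another split, below. At an unadjusted p under 0.05 the upward count was likewise 0, and DESeq2 also gave 0. Of all genes tested 26.6% were lower and 30.2% higher, 56.8% together. The 4 livers of each group were fully apart in CPM, with DDC lower, for 6 of the 9 (25.7% of all genes) and with DDC higher for 0 (26.9%). With TMM, Ahcy, Gnmt and Mat1a were lower by at least 2-fold, as were 8.85% of all genes. By library totals their log2 fold changes were -1.27, -0.97 and -0.52, so only Ahcy stayed past 2-fold. The median log2 fold change of the 9 was -0.73, against 0.073 over all genes.

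The scale of the libraries decided the direction of several of the 9, because TMM factors were 0.792 to 0.816 in controls and 1.21 to 1.27 in DDC. With library totals alone the median of all genes moved to 0.696, and 4 of the 9 were lower and 4 higher, against 8.96% and 58.9% of all genes. Scaling to 12 hepatocyte markers, added after the data were seen, likewise gave 4 lower and 4 higher, against 7.9% and 61.3% of all genes. Ahcy, Gnmt, Mat1a and Cbs were lower under each of the 3 scalings. Cth and Bhmt2 passed as lower with TMM and as higher with the other 2. Mat2a and Bhmt passed, as higher, with the other 2 and not with TMM.

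**Figure D1:**
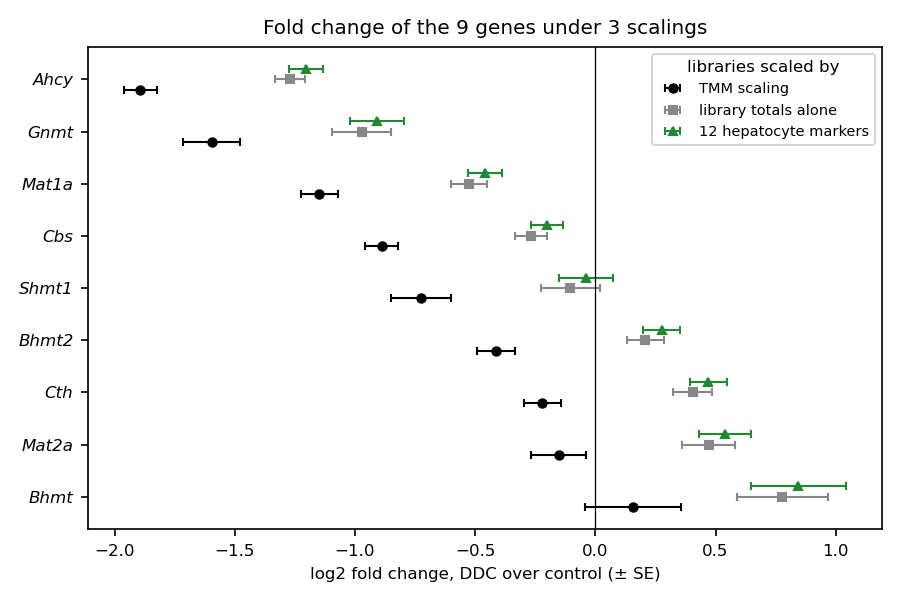
Log2 fold change of each of the 9 genes, DDC over control, with its standard error (n = 4 per group), under TMM scaling (circles), library totals alone (squares) and the 12 hepatocyte markers (triangles). Ahcy, Gnmt, Mat1a and Cbs lie below 0 with each scaling, while Bhmt2, Cth and Mat2a change sides.

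Markers of most cell types moved with the diet in the same libraries, where 26.6% of all genes were lower and 30.2% higher with TMM. The 12 hepatocyte markers had a median log2 fold change of -0.87, and 10 were lower, from Ttr at -1.31 to Ahsg at -0.30 (7 lower and 4 higher by library totals). Trf at 0.24 and Hpx at 0.29 did not pass. Their summed level was 168800 to 197000 CPM in controls and 98210 to 112400 CPM in DDC. Of 9 macrophage and monocyte markers 9 were higher, with a summed level of 132 to 174 CPM in controls and 1465 to 1613 CPM in DDC. Of 7 bile duct markers 6 were higher (67.4 to 145 against 716 to 1104 CPM summed), as were 5 of 8 stellate cell and fibroblast markers (188 to 205 against 778 to 964 CPM) and 5 of 5 Kupffer cell markers (214 to 299.5 against 820 to 1185 CPM). Of 6 cell cycle genes 6 were higher, as were 5 of 5 neutrophil markers and 3 of 6 sinusoidal endothelial markers. Of 7 lymphocyte markers 2 were higher and 2 lower (28.6% each), near the shares of all genes. By library totals 6 of 6 endothelial and 7 of 8 stellate and fibroblast markers were higher. Of the lymphocyte markers 4 were then higher and 1 lower (57.1% and 14.3%, against 58.9% and 8.96% of all genes). The counts of the other lists outside the hepatocyte were equal under both scalings. No marker was at 0 in any library, and the part of cell makeup in the values below was not tested. In bulk liver, fewer hepatocytes and less RNA per hepatocyte cannot be told apart.

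Libraries of a group were not all alike. Over genes with at least 20 counts in a pair, the chi-square per degree of freedom was 13.5 between controls 1 and 3 and 62.7 between controls 2 and 4, but 162 to 220 for the other control pairs. It was 89.7 to 98.9 for pairs with DDC 1 and 15.9 to 22.5 among DDC 2 to 4.

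Mat1a, the hepatocyte synthetase (ENSMUSG00000037798, chromosome 14, 41105035 to 41124412, plus strand), was 5842, 4878, 5820 and 5299 CPM in controls 1 to 4. In DDC 1 to 4 it was 2422, 2494, 2336 and 2600 CPM. Every DDC library lay below every control, with little spread in DDC. Controls 1 and 3 were above controls 2 and 4. Mat1a fell 2.22-fold (log2 fold change -1.15, SE 0.08, edgeR adjusted p = 1.7e-06). By library totals it was at -0.52 on that scale (edgeR adjusted p = 0.000191). With TMM, leaving out controls 1 and 3 gave -1.05 and leaving out 2 and 4 gave -1.25, both tried after the data were seen.

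Mat2a, the synthetase of most other cells (ENSMUSG00000053907, chromosome 6, 72432799 to 72439558, minus strand), was 139, 104, 151 and 143 CPM in controls and 135, 116, 115 and 116 CPM in DDC. The groups overlapped, with control 2 the lowest of the 8 libraries, and the gene did not pass (log2 fold change -0.15, SE 0.11, edgeR adjusted p = 0.279). Without control 2 it passed as lower (-0.27, edgeR adjusted p = 0.017), and by library totals as higher (0.47, edgeR adjusted p = 0.00402). In FPKM the groups were apart with DDC higher, at 18.2 to 26.5 in controls and 30.2 to 35.6 in DDC. The direction of Mat2a was thus not settled. Its partners did not pass either: Mat2b, the regulatory subunit of the Mat2a enzyme, was 32.5 ± 3.06 and 30.9 ± 1.57 CPM, and Mettl16, which binds the sites shown above, was 14.6 ± 2.69 and 13.5 ± 0.749 CPM (n = 4 each, edgeR adjusted p = 0.441 and 0.452). By library totals both passed as higher, with log2 fold changes of 0.55 and 0.51.

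The ratio of Mat1a to Mat2a needs no scaling between libraries. From FPKM it was 54.6, 60.9, 49.8 and 48.0 in controls 1 to 4 and 23.1, 27.8, 26.2 and 29.1 in DDC 1 to 4. All DDC values lay below all controls. The mean went from 53.3 ± 5.77 to 26.6 ± 2.58 (SD, n = 4 each), a 2.01-fold lower ratio (log2 difference -1.0, SE 0.105). The two-sided exact permutation p was 0.0286, the smallest possible over 70 assignments, and 0.0429 after adjustment over 3 ratios. With any 1 of the 4 DDC libraries left out the exact permutation p was still 0.0286, while the adjusted value was 0.0857. Mat1a RNA still exceeded Mat2a RNA in every DDC liver. With TMM, 10 of the 12 hepatocyte markers above were lower (7 lower and 4 higher by library totals) and most other-cell markers were higher. Lymphocyte markers moved both ways. The part of cell makeup in the ratio was not tested.

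**Figure D2:**
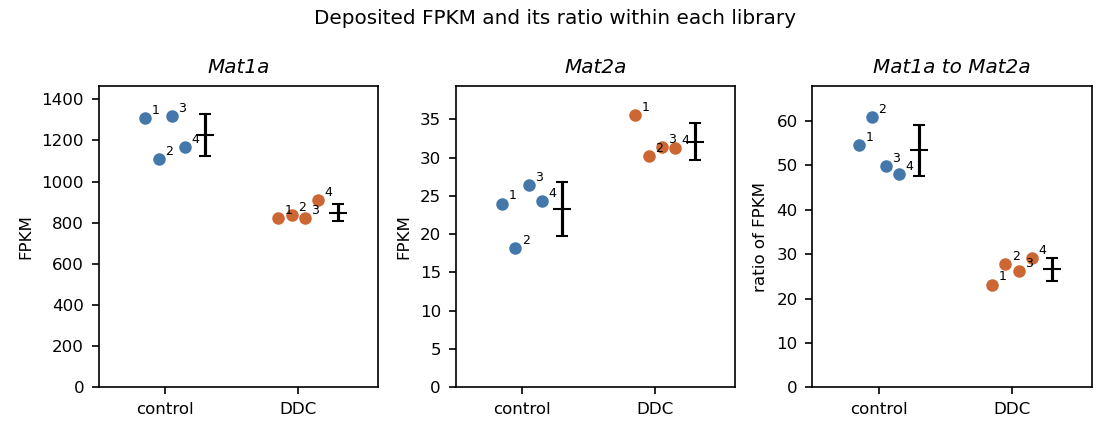
Deposited FPKM of Mat1a and Mat2a and their ratio within each library, for 4 control and 4 DDC livers numbered by replicate. Bars give the mean and SD. The ratio was 48.0 to 60.9 in controls and 23.1 to 29.1 in DDC.

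Gnmt encodes glycine N-methyltransferase, an abundant hepatocyte enzyme that disposes of surplus SAM (ENSMUSG00000002769, chromosome 17, 46725664 to 46729168, minus strand). It was 1992, 1700, 1953 and 1607 CPM in controls and 476, 661, 606 and 655 CPM in DDC. DDC 1 was the lowest library and the groups were apart. With TMM, Gnmt fell 3.02-fold (-1.60 on the log2 scale, SE 0.12, edgeR adjusted p = 3.41e-06), and 4.59% of tested genes had a lower log2 fold change. By library totals Gnmt was at -0.97 on the log2 scale (edgeR adjusted p = 7.77e-05). Controls 1 and 3 were above 2 and 4 for Gnmt too. With TMM, leaving out controls 1 and 3 gave -1.47 and leaving out 2 and 4 gave -1.73, both tried after the data were seen.

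Ahcy encodes the hydrolase that splits S-adenosylhomocysteine (ENSMUSG00000027597, chromosome 2, 155059310 to 155074497, minus strand). Its level was 3101, 3069, 3110 and 3201 CPM in controls and 923, 800, 830 and 808 CPM in DDC. These groups were also fully apart, with little spread in either. The fall was 3.71-fold, the largest of the 9 with TMM scaling (-1.89 on the log2 scale, SE 0.07, edgeR adjusted p = 5.76e-08), and 3.1% of tested genes had a lower value. Ahcy and Gnmt lay below the lowest of the 12 hepatocyte markers, Ttr at -1.31. With TMM 7.25% of all tested genes lay below Ttr, Sardh, Got1 and Nnmt of the related lists included. The position was thus not particular to Ahcy and Gnmt. Scaled to those markers, Ahcy was at -1.20 and Gnmt at -0.91 on the log2 scale (edgeR adjusted p = 5.41e-07 and 6.91e-05). Mat1a was at -0.46 and Cbs at -0.20 on that scale (edgeR adjusted p = 0.00026 and 0.021). The 12 markers themselves ran from Ttr at -0.62 to Hpx at 0.98 there. Mat1a and Cbs lay within that range, and Ahcy and Gnmt below it.

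**Figure D3:**
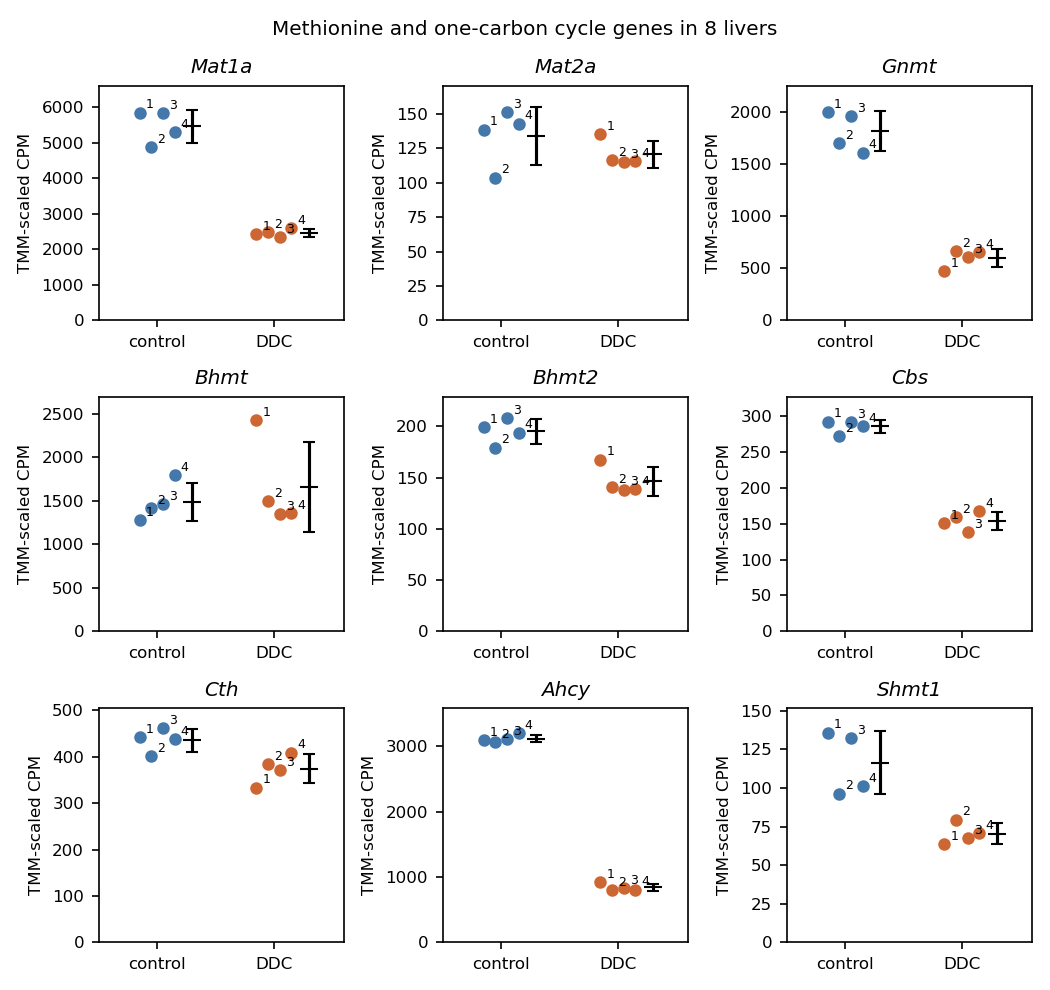
TMM-scaled CPM of the 9 genes in each of 4 control and 4 DDC livers, numbered by replicate, with mean and SD beside the points. Ahcy, Gnmt, Mat1a and Cbs separate widely, and DDC 1 stands alone for Bhmt at 2430 CPM.

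Bhmt and Bhmt2 encode the enzymes that remethylate homocysteine, Bhmt with betaine and Bhmt2 with S-methylmethionine, and lie next to each other on the minus strand of chromosome 13 (ENSMUSG00000074768, 93616675 to 93637961, and ENSMUSG00000042118, 93655720 to 93674302). Bhmt was 1279, 1418, 1459 and 1795 CPM in controls and 2430, 1501, 1344 and 1357 CPM in DDC. DDC 1 was far above the other 3, which lay within the control range in CPM. In FPKM every DDC liver lay above every control, at 285 to 497 against 173 to 238. Bhmt did not pass (log2 fold change 0.16, SE 0.20, edgeR adjusted p = 0.521), and without DDC 1 the value was -0.11 (edgeR adjusted p = 0.428). By library totals it passed as higher (0.78, edgeR adjusted p = 0.00532).

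Bhmt2 was 199, 179, 208 and 194 CPM in controls and 168, 141, 138 and 139 CPM in DDC. It was lower with the groups apart (log2 fold change -0.41, SE 0.08, edgeR adjusted p = 0.00165), but higher by library totals (0.21, edgeR adjusted p = 0.033). The ratio of Bhmt to Bhmt2 in FPKM, free of that choice, was 2.75, 3.39, 3.01 and 3.96 in controls and 6.21, 4.56, 4.16 and 4.18 in DDC. The groups did not overlap, though control 4 and DDC 3 were close. The log2 difference was 0.54 (SE 0.18, two-sided exact permutation p = 0.0286, 0.0429 over 3 ratios, n = 4 each), and 0.41 without DDC 1. Adjusted over 3 ratios, the exact permutation p was 0.0857 with any 1 of the 4 DDC libraries left out. The 2 genes are similar in sequence, so counting could have split reads between them.

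Cbs and Cth encode the 2 steps of transsulfuration, cystathionine beta-synthase and cystathionine gamma-lyase. Cbs (ENSMUSG00000024039, chromosome 17, 31608894 to 31637238, minus strand) was 292, 272, 291 and 285 CPM in controls and 151, 159, 139 and 167 CPM in DDC. The groups were apart, and Cbs fell 1.85-fold (log2 fold change -0.89, SE 0.07, edgeR adjusted p = 4.25e-06). By library totals Cbs was at -0.27 (edgeR adjusted p = 0.00564). Cth (ENSMUSG00000028179, chromosome 3, 157894248 to 157925077, minus strand) was 443, 402, 461 and 438 CPM in controls and 334, 383, 371 and 409 CPM in DDC. DDC 4 overlapped control 2 in CPM, while in FPKM every DDC liver lay above every control (141 to 178 against 114 to 130).

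Cth passed narrowly as lower (log2 fold change -0.22, SE 0.08, edgeR adjusted p = 0.0342) and passed as higher by library totals (0.40, edgeR adjusted p = 0.00144). Leaving out control 1, 3 or 4 or DDC 2 or 3 ended the call (edgeR adjusted p = 0.0529 to 0.0796) at log2 fold changes of -0.23 to -0.20. Upper-quartile factors, no count filter and a filter of 1 CPM in 4 libraries also ended it, at -0.16, -0.18 and -0.19 (edgeR adjusted p = 0.116, 0.0954 and 0.0541). Gm43314, annotated inside Cth on the same strand, had 622 to 1028 counts in controls and 1274 to 4583 in DDC, up to 11.9% of the Cth count, and whether it shares reads with Cth was not tested.

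Shmt1 encodes the cytosolic enzyme that loads one-carbon units from serine onto folate (ENSMUSG00000020534, chromosome 11, 60788104 to 60811265, minus strand). It was 136, 96.4, 132 and 101 CPM in controls and 63.7, 79.6, 67.3 and 70.8 CPM in DDC. Controls 1 and 3 were above controls 2 and 4, and all were above the DDC livers in CPM, though the groups overlapped in FPKM. Shmt1 was lower (log2 fold change -0.73, SE 0.12, edgeR adjusted p = 0.000836). Leaving out controls 1 and 3 gave -0.49 and leaving out 2 and 4 gave -0.94, both tried after the data were seen. By library totals it was at -0.10 and did not pass (edgeR adjusted p = 0.475). Smcr8, on the opposite strand, overlaps Shmt1 and had 2300 to 2985 counts per library, up to 60.9% of the Shmt1 count. Whether the counts used strand is unknown, and the share of reads in common was not tested.

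The ratio of Shmt1 to Shmt2, the mitochondrial counterpart, was 0.398, 0.350, 0.396 and 0.341 in controls and 0.429, 0.451, 0.392 and 0.401 in DDC. The groups overlapped and the difference did not pass (log2 difference 0.17, SE 0.07, two-sided exact permutation p = 0.114, also 0.114 over 3 ratios, n = 4 each). Shmt2 itself went from 250 ± 25.0 to 135 ± 10.8 CPM (n = 4, edgeR adjusted p = 2.3e-05, log2 fold change -0.89).

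The sequence upstream of Gnmt and Ahcy is shown because these 2 genes had the largest falls. Promoters of 7 of the 9 genes, Mat2a, Gnmt, Bhmt, Bhmt2, Cbs, Ahcy and Shmt1, matched the RefSeq promoter table in build GRCm38.p6, and the 250 bases before each RefSeq start were searched on both strands. The site CAAAGGTCA, bound by HNF4A and related receptors, stood in 1 of the 7 and in 0.426% of 32851 promoters. The TATA box, searched as TATAAA, was in 1 of the 7 and 12.4% of all. The box CCAAT was in 6 of the 7 and 33.8% of all, and the GC box, searched as GGGCGG, in 5 and 32.7%. The E-box CACGTG was in 1 of the 7 and 6.02% of all. CAAAGGTCA was found only in Bhmt, 50 bases before the RefSeq start, but 203 of the 250 bases searched there, the match included, lie inside the gene as the deposited table places it. The overlap was 33 bases for Cbs and at most 3 for the other 5. Hnf4a, a hepatocyte marker above, averaged 881 CPM in control and 374 CPM in DDC livers (log2 fold change -1.24 with TMM and -0.61 by library totals). Whether the level of Hnf4a bears on any of the 9 genes was not tested. The sequences read 5′ to 3′ on the gene's strand, minus in each case, with matches in capitals, and a match on the other strand appears as its reverse complement.
Gnmt, chr17:46729166-46729415: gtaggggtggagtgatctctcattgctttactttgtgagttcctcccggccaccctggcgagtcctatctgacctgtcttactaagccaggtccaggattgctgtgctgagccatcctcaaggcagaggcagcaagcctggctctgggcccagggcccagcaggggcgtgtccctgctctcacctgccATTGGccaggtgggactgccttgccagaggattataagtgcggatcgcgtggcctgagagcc
Ahcy, chr2:155074498-155074747: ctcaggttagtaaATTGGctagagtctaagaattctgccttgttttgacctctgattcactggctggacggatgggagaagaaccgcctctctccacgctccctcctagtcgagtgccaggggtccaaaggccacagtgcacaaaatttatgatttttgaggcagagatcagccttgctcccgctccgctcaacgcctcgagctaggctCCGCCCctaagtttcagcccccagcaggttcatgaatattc

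Profiles were compared among 8542 genes with a mean of at least 10 CPM and an established symbol (no Gm number, Rik name or accession). The profiles closest to Mat1a over the 8 libraries were those of Dpp4, Ctif and Aldh8a1. Their root mean square differences were 0.043, 0.053 and 0.054 in centred log2(CPM + 1). The profiles closest to Mat2a were those of Stag1, Bag3 and Pir, at 0.070, 0.085 and 0.088. Dpp4 averaged 133 CPM in controls and 57.1 CPM in DDC, and Stag1 27.4 and 25.0 CPM.

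Of the enzymes around the cycle more were lower than higher with TMM. Fold changes of single genes in the lists below are also with TMM unless library totals are named. Of 76 genes in 5 related lists 75 were tested, and 42 were lower and 15 higher, with a median log2 fold change of -0.45. These are 56% lower and 20% higher, against 26.6% and 30.2% of all genes and a median of 0.073. By library totals 19 were lower and 34 higher, with a median of 0.18. These are 25.3% and 45.3%, against 8.96% and 58.9% of all genes and a median of 0.696. The 5 lists were chosen with earlier results of these data known, so their shares are descriptive only.

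Of 22 folate cycle and one-carbon unit genes 11 were lower and 4 higher (4 and 11 by library totals). These are 50% and 18.2%, against 26.6% and 30.2% of all genes. By library totals they are 18.2% and 50%, against 8.96% and 58.9% of all genes. Slc25a32, the mitochondrial folate carrier, was 77.8 to 91.7 CPM in controls and 21.8 to 27.1 CPM in DDC and fell 3.66-fold (edgeR adjusted p = 1.8e-07). Fpgs, which adds the glutamates that keep folate in the cell, was 115 to 154 and 53.0 to 60.1 CPM and fell 2.48-fold. By library totals the log2 fold changes of Slc25a32 and Fpgs were -1.25 and -0.69. Aldh1l1, the most abundant of the list, which oxidises 10-formyltetrahydrofolate, went from 1601 ± 316 to 845 ± 34.7 CPM (n = 4, edgeR adjusted p = 0.000215) but did not pass by library totals (edgeR adjusted p = 0.0635).

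The largest rises of the list were those of Mthfd1l and Mthfd2, mitochondrial folate enzymes, while Shmt2, also mitochondrial, was lower as given above. Mthfd1l was 4.40 to 7.10 CPM in controls and 11.2 to 13.6 CPM in DDC, a 2.05-fold rise (edgeR adjusted p = 0.000299). Mthfd2 was 1.65 to 2.28 and 2.89 to 4.37 CPM, a 1.87-fold rise (edgeR adjusted p = 0.00509). The groups did not overlap for either gene. Mtr, the folate-dependent methionine synthase, did not pass, at 17.9 ± 1.56 and 17.5 ± 1.64 CPM (n = 4, edgeR adjusted p = 0.796), but was higher by library totals (log2 fold change 0.59).

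Of 12 genes of choline, betaine, glycine and serine supply 9 were lower and 2 higher (5 and 3 by library totals). These are 75% and 16.7%, against 26.6% and 30.2% of all genes. By library totals they are 41.7% and 25%, against 8.96% and 58.9% of all genes. Sardh, the mitochondrial enzyme that breaks down the sarcosine made by Gnmt and the most abundant of the list, was 766 to 819.5 CPM in controls and 262 to 284 CPM in DDC and fell 2.88-fold (edgeR adjusted p = 7.93e-08). Gcat, a threonine and glycine enzyme, fell 3.64-fold and Sds, which turns serine into pyruvate, 3.51-fold (edgeR adjusted p = 2.03e-05 and 1.2e-07). The enzymes of serine synthesis did not move one way. Psph went from 4.48 ± 0.593 to 9.0 ± 0.941 CPM and Phgdh from 1.86 ± 0.635 to 3.56 ± 0.605 CPM (n = 4, edgeR adjusted p = 0.000187 and 0.0158). Psat1, the enzyme between them, went the other way, from 11.5 ± 3.93 to 6.83 ± 1.84 CPM with overlapping groups (n = 4, log2 fold change -0.75, edgeR adjusted p = 0.0462), and did not pass by library totals (edgeR adjusted p = 0.719).

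Of 18 SAM consumers and SAM pool genes 12 were lower and 4 higher (5 and 8 by library totals). These are 66.7% and 22.2%, against 26.6% and 30.2% of all genes. By library totals they are 27.8% and 44.4%, against 8.96% and 58.9% of all genes. Nnmt, nicotinamide N-methyltransferase, was 316 to 398 CPM in controls and 33.0 to 41.4 CPM in DDC and fell 9.47-fold (edgeR adjusted p = 3.7e-08). Inmt, an amine N-methyltransferase and the most abundant of the list, was 1522, 736, 1499 and 698 CPM in controls and 125 to 140 CPM in DDC, an 8.22-fold fall (edgeR adjusted p = 3.01e-05) with controls 1 and 3 again above 2 and 4. The DNA methyltransferases moved upward: Dnmt1 rose 2.14-fold, from 17.0 ± 2.29 to 36.2 ± 2.27 CPM (edgeR adjusted p = 1.24e-05), and Dnmt3b 2.55-fold, from 0.997 ± 0.408 to 2.55 ± 0.164 CPM (n = 4 each, edgeR adjusted p = 0.00745). Cell cycle genes were also higher (6 of 6, against 30.2% of all genes), as were 9 of 9 macrophage and monocyte markers. A link of the DNA methyltransferases to either list was not tested.

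Of 11 tested genes of cysteine use and sulfide oxidation 6 were lower and 1 higher (3 and 4 by library totals). These are 54.5% and 9.09%, against 26.6% and 30.2% of all genes. By library totals they are 27.3% and 36.4%, against 8.96% and 58.9% of all genes. Got1, cytosolic aspartate aminotransferase, was 792 to 923 CPM in controls and 175 to 207 CPM in DDC and fell 4.40-fold, and Mpst, a sulfurtransferase, fell 2.74-fold (edgeR adjusted p = 7.66e-08 and 1.29e-06). By library totals the log2 fold changes of Got1 and Mpst were -1.51 and -0.83. Cdo1, cysteine dioxygenase and the most abundant of the list, was 1228 ± 144 and 905 ± 78.1 CPM (n = 4, edgeR adjusted p = 0.00388), but its log2 fold change went from -0.44 to 0.18 by library totals. Gss, glutathione synthetase, rose 1.54-fold from 84.5 ± 2.30 to 130 ± 6.53 CPM (n = 4, edgeR adjusted p = 9.8e-06), while the subunits of the rate-limiting step before it, Gclc and Gclm, did not pass (edgeR adjusted p = 0.941 and 0.336) and were higher by library totals (log2 fold changes 0.64 and 0.70).

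Of 12 methionine salvage and polyamine genes 4 were lower and 4 higher (2 and 8 by library totals), with a median log2 fold change of 0.029. The shares with TMM, 33.3% each way, were near the 26.6% lower and 30.2% higher of all genes. By library totals they were 16.7% lower and 66.7% higher, against 8.96% and 58.9% of all genes. Sat1, which acetylates polyamines for export, was 78.9 to 90.8 CPM in controls and 170 to 195 CPM in DDC and rose 2.11-fold, and Mtap, the first salvage enzyme, rose 1.81-fold (edgeR adjusted p = 1.12e-06 and 0.00014). Azin1, an antizyme inhibitor, fell 2.11-fold and Adi1, a later salvage enzyme, 1.87-fold (edgeR adjusted p = 7.69e-07 and 2.39e-06). By library totals the log2 fold changes of Azin1 and Adi1 were -0.45 and -0.28. Oaz1, ornithine decarboxylase antizyme and the most abundant of the list, went from 237 ± 6.17 to 141 ± 5.64 CPM (n = 4, edgeR adjusted p = 2.86e-06) but did not pass by library totals (edgeR adjusted p = 0.0755).

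**Figure D4:**
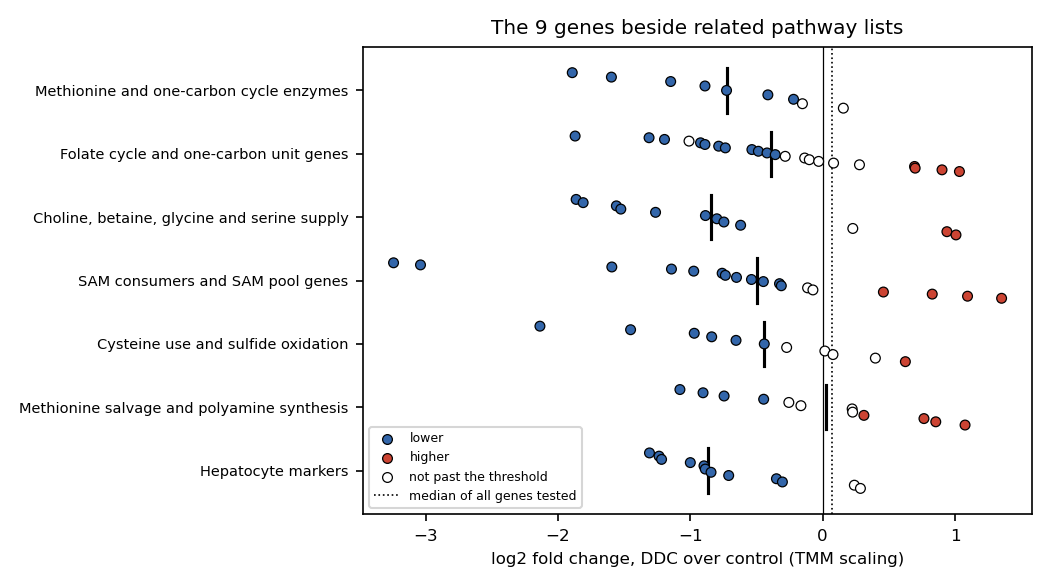
Log2 fold change, DDC over control with TMM scaling, of each tested gene of the 9, of the 5 related lists and of the hepatocyte markers. Colour marks the edgeR call, the vertical bar each median and the dotted line the median of all genes tested, 0.073. The 9 genes have a median of -0.73 and the hepatocyte markers -0.87.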

How the data were processed

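Polyadenylated liver RNA was sequenced with a dUTP protocol, per the labels' protocols. The authors deposited whole-number gene counts for 55401 genes and FPKM (counts per length and depth) for 33467. The counts beside FPKM differed from the matrix in 0 values. The submitters' processing notes name cutadapt, FastQC, HISAT2, StringTie and DESeq2 and the builds GRCm38 and mm10. No source used here says if counts were strand-specific. Totals were 61179103 to 81664058 counts.

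edgeR 4.0.16 (R 4.3.3) with TMM, filterByExpr and robust quasi-likelihood fits was run on counts of all libraries, adjusted over all tested genes, and was tested on simulated data. There it found 8, 23, 28 and 25 of 50 genes each set at 1.5, 2, 4 and 0.5 times, with 4 false among 88 calls. The simulation held no broad shift in library makeup, so it cannot decide between the scalings. The standard error is the log2 fold change over the square root of F. Ratios of FPKM were compared by exact permutation. Alternatives used DESeq2 1.42.0, limma 3.58.1, other scalings and filters, FPKM with pseudocounts of 1 and 0.1, omitted libraries and a replicate block. Per list, the text names the most abundant gene and up to 2 largest called rises and falls reaching 1 CPM. Other related genes named were chosen after their values were seen. Members and lists were chosen with earlier results of these data known.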

Additional observations from a re-analysis of the deposited data

Results flagged for a closer look

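In 70 groups of 4 values (32 genes and 3 ratios in both groups), 6 held a library whose gap to its nearest neighbour took more of the group's range than Dixon's critical value for 4 allows. Chance flags about 5% of such groups. DDC 1 was the library in 4 of the 6. Mat2a in DDC 1 was 135 CPM against 115 to 116 in the other DDC livers, a gap of 0.948 of the range. Bhmt in DDC 1 was 2430 CPM against 1344 to 1501, a gap of 0.855. Bhmt2 in DDC 1 was 168 CPM against 138 to 141, a gap of 0.912. Gcat in DDC 1 was 30.9 CPM against 22.2 to 23.2, a gap of 0.878. Inmt in DDC 4 was 125 CPM against 137 to 140, a gap of 0.840, and Gss in DDC 2 was 140 CPM against 126 to 128, a gap of 0.914.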

How the results depend on the processing

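Mat1a, Gnmt, Ahcy and Cbs were lower and past the threshold in all 23 alternatives run. In 6 scalings (library totals alone, totals without the 20 most abundant genes, log2(FPKM + 1), log2(FPKM + 0.1), log2(FPKM + 1) without a filter and the 12 hepatocyte markers, the last added after seeing the data) the counts moved. Of the 9 genes 4 were then lower in each and 4, 3, 4, 4, 3 and 4 higher. Related genes numbered 19, 21, 19, 19, 17 and 18 lower and 34, 33, 33, 33, 33 and 37 higher. All genes numbered 1750, 1913, 1815, 1826, 1687 and 1544 lower and 11505, 11008, 11987, 11976, 12078 and 11981 higher, so 85.2% to 88.6% of calls were upward against 53.1%, with a median log2 fold change from 0.076 to 0.761. In the same order Mat2a was at 0.47, 0.42, 0.46, 0.47, 0.46 and 0.54, Bhmt2 at 0.21, 0.16, 0.20, 0.20, 0.20 and 0.28, Cth at 0.40, 0.35, 0.39, 0.39, 0.39 and 0.47 and Cdo1 at 0.18, 0.13, 0.18, 0.18, 0.18 and 0.25. Bhmt was at -0.11 without DDC 1, and ran from -0.11 to 0.26 over the 8 omissions of 1 library. The cause was not tested.

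The log2 difference of the Mat1a to Mat2a ratio ran from -1.05 to -0.94 and that of Bhmt to Bhmt2 from 0.41 to 0.63 when each library was left out. With any 1 DDC library left out the adjusted exact permutation p was 0.0857. With medians the differences were -0.95 and 0.45 (adjusted p = 0.0857). Without controls 1 and 3, added later, they were -1.03 and 0.36, and without controls 2 and 4 -0.98 and 0.71 (adjusted p = 0.1 to 0.133, few assignments remaining). With the replicate block they were -1.0 and 0.54, where 4 pairs cannot reach the threshold (adjusted p = 0.188). Same-numbered libraries correlated at -0.21 to 0.03, so the number pairs nothing. In edgeR the block gave 6 of the 9 lower and 0 higher, against 4654 lower and 4810 higher of 19535 tested genes. Cth did not pass with the block (edgeR adjusted p = 0.0735). Depth limits no value of the 9, whose lowest value was 63.7 CPM (Shmt1 in DDC 1).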
